A study of Mus musculus with 34 samples.

Results

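The transcripts of 34 subunits of the constitutive proteasome were followed in the blood of mice given phosphate-buffered saline (PBS), the adiponectin receptor agonist ALY688, lipopolysaccharide (LPS) or ALY688 with LPS. The genes were chosen by symbol: 7 alpha subunits and 7 beta subunits of the core particle, 6 ATPases and 3 further subunits of the base, 8 subunits of the lid, and 3 activators. All 34 were found among the 54532 gene IDs of the count tables, and all 34 passed the filter on low counts in each comparison. All mice were labelled wild type and all samples blood. Counts were analysed for 9 mice with PBS, 10 with ALY688, 4 with LPS (mice 2, 6, 7 and 8) and 7 with both agents. Not analysed here were mouse 10 of the PBS group and mice 3, 4 and 5 of the LPS group. The labels used here state no dose, sampling time, sex or age. The series text describes an experiment on mice with and without ALY688 and a sublethal LPS model, so the effect of LPS and a difference between experiments cannot be told apart.

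The proteasome degrades proteins that carry ubiquitin. Its barrel-shaped core particle has outer alpha rings, which form the gate, and inner beta rings, in which Psmb5, Psmb6 and Psmb7 carry the proteolytic sites. The regulatory particle has a base, whose ATPase ring unfolds the substrate, and a lid, in which Psmd14 removes the ubiquitin chain. Other caps open the gate without ATP: Psme1 and Psme2 form the activator that interferon induces, and Psme3 forms a related activator found in the nucleus. Immune cells can replace the catalytic subunits with Psmb8, Psmb9 and Psmb10, and young red cells use ubiquitin-dependent degradation while they clear their contents.

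Library totals lay between 9554964 and 17338214 counts. Globin genes took 45.2% to 64.4% of the counts in PBS mice and 42.2% to 60.8% in ALY688 mice. Their share was 18.5% to 43.7% after LPS alone and 26.3% to 54.3% after both agents. Fewer than 16000 genes had a count in PBS mice 5, 6 and 9, ALY688 mouse 7 and ALY688 with LPS mice 6 and 8. These are called here the low-complexity libraries, and test results that turn on them are given with and without them. The 34 subunits together received 0.0878% to 0.174% of all counts with PBS and 0.166% to 0.314% with LPS. Each of the 47 markers of blood cell types had a count in every library.

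Levels are given as CPM, the counts of a gene relative to the library total scaled by a TMM factor, and levels of different genes are compared only per kilobase of exon. The length used was that of the merged exons of all annotated transcripts, from 899 bases for Psmb5 to 7265 for Psmd1. It can exceed the length of any 1 transcript, so the order of genes per kb also depends on the annotation. Per kilobase of exon Psme3 stood far above the rest, at 359.5 ± 181.3 CPM per kb (SD, n = 9) with PBS, 47.1 times the median of the 34 subunits. Psmd4, the ubiquitin receptor of the base, came next at 42.85 ± 20.02 CPM per kb, followed by Psme1 at 27.2 ± 3.37. Psmb5, the chymotrypsin-like site, was at 20.7 ± 5.76 CPM per kb, and its SD overlapped that of Psme1. The lowest were Psmb7, the trypsin-like site, at 2.80 ± 0.469, Psmc2, an ATPase, at 2.44 ± 0.329, and Psmd1, a scaffold of the base, at 1.61 ± 0.459 CPM per kb. Psmb7 and Psmc2 did not differ beyond their SDs. By class, the median per kb with PBS was 6.84 CPM for the alpha ring, 9.00 for the beta ring, 8.04 for the ATPases and 4.61 for the lid.

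Psme3 alone held 54.6% ± 10.4 (SD, n = 9) of the counts of all 34 subunits with PBS and 50.8% ± 11.3 (n = 10) with ALY688. With LPS it held 23.0% ± 15.5 (n = 4), and with both agents 35.9% ± 18.9 (n = 7). Its level per kb with LPS was 118.8 ± 99.1 CPM, still the highest of the 34 and 9.28 times their median. Psmd4 moved from rank 2 with PBS to rank 6 with LPS. The gene of Psme3 lies at chr11:101316213-101323537 and that of Psmd4 at chr3:95032694-95042614 (GRCm38). No other annotated gene overlaps either of them.

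**Figure D1:**
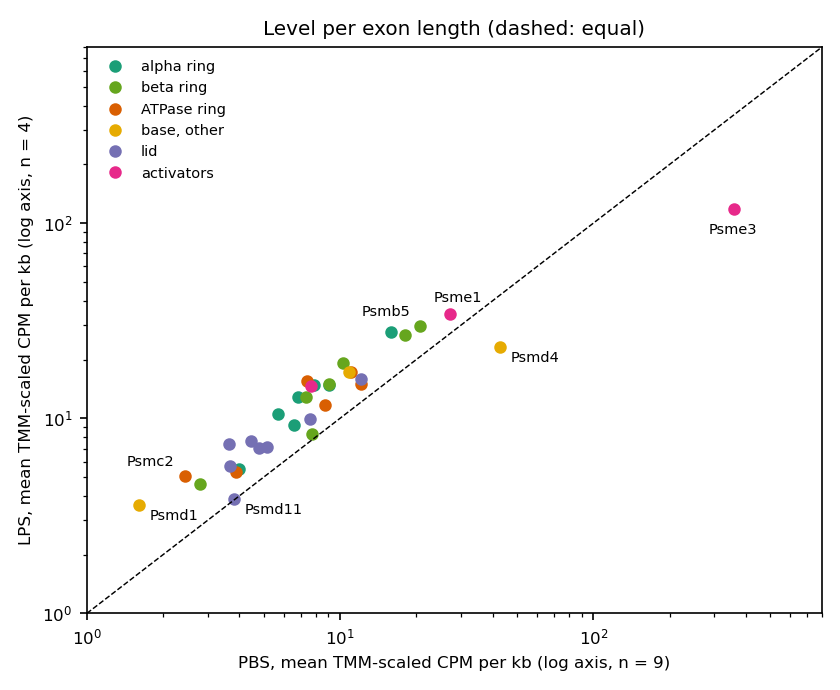
Mean level per kilobase of exon of each of the 34 subunits with PBS (x axis) and with LPS (y axis), in TMM-scaled CPM per kb on log axes; colours mark the classes and the dashed line marks equal levels. Psme3 and Psmd4 lie to the lower right of the line, Psmd11 lies on it, and the other subunits lie above it.

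Promoter sequences were available for 28 of the 34 subunits (RefSeq, GRCm38.p6; 250 bases before the start to 50 after it). They are shown for the pair that stood apart, Psme3 and Psmd4, for an ATPase that rose with LPS, Psmc1, and for members of other classes that carry a searched motif. Each is printed 5′ to 3′ on the strand of its gene, from 150 bases before the start to 30 after it, with motif matches in capitals.
Psme3, chr11:101316063-101316242 (plus strand): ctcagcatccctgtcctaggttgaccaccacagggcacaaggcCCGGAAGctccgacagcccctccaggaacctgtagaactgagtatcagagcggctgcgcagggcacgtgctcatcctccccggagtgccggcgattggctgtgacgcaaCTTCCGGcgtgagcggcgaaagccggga
Psmd4, chr3:95042585-95042764 (minus strand): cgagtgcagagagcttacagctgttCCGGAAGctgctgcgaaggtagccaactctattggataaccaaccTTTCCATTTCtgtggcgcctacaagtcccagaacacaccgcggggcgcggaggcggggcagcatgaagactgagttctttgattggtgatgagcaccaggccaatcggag
Psmc1, chr12:100110052-100110231 (plus strand): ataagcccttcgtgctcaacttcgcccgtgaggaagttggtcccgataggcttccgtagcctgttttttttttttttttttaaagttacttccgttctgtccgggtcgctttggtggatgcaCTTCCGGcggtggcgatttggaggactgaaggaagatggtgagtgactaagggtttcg
Psmb5, chr14:54617966-54618145 (minus strand): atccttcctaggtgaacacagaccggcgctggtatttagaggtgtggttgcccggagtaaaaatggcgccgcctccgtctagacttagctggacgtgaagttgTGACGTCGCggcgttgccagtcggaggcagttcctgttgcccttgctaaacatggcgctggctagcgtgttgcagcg
Psmb6, chr11:70525207-70525386 (plus strand): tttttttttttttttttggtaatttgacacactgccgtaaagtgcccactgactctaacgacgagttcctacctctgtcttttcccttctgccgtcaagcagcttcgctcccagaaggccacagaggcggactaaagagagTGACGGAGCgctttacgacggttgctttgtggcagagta
Psme1, chr14:55578344-55578523 (plus strand): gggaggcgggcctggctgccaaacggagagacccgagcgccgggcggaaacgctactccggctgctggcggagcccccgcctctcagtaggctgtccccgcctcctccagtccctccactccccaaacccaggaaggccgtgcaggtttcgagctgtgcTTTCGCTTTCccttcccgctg
The ETS motif CCGGAAG, on either strand, was in the promoter of 11 of the 28 subunits (39.3%), against 8.86% of the 32851 promoters of the table. The 11 were Psma6, Psmc1, Psmc2, Psmc6, Psmd2, Psmd4, Psmd6, Psmd11, Psmd12, Psmd13 and Psme3. In Psme3 it matched on the printed strand at -107 and on the opposite strand at 2, counted from the first base of the transcript as 0. In Psmd4 it matched at -125 and in Psmc1 at -28. The core of the antioxidant response element, TGACNNNGC, was found in 4 of the 28 (14.3%, against 12.4% of all promoters): Psmb5 at -47, Psmb6 at -9, Psmc6 and Psmd12. The interferon response element was found in 3 (10.7% against 3.44%), namely Psmb3, Psmd4 at -80 and Psme1 at 9. The STAT motif TTCNNNGAA was found in 1, Psmd2 (3.57% against 8.3%). The GATA motif AGATAA, added after the other results were seen, was found in Psmc6 alone (3.57% against 11.2%). A match is a run of letters in this window and was not tested for binding.

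Mice given LPS had higher levels of most subunits than mice given PBS. Of the 34, 24 rose and 1, Psme3, fell (edgeR quasi-likelihood test, adjusted p below 0.05). Among all 12353 genes tested, 20.9% rose and 17.9% fell. The median log2 fold change was 0.64 over the subunits and -0.04 over all genes. Every LPS library was above every PBS library for 15 of the 34, against 13.2% of all genes, and every LPS library was below every PBS library for 0 (5.93% of all genes). In mice that all received ALY688 (both agents against ALY688, called the comparison within ALY688), LPS went with a rise of 31 of the 34 and a fall of none, where 26.4% of 12266 genes rose and 26.6% fell. There the median was 0.73 over the subunits and -0.05 over all genes, and 13 of the 34 (12.6% of all genes) were higher in every mouse with LPS and 0 (6.53% of all genes) lower. In bulk blood, more cells of a type and more RNA per cell cannot be told apart.

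All 7 alpha subunits rose in both comparisons. Psma1, an alpha subunit, stood at 13.7 to 27.3 CPM with PBS (median 19.4) and at 43.0, 43.2, 32.4 and 32.5 CPM in LPS mice 2, 6, 7 and 8. With ALY688 it ranged from 12.7 to 23.3 CPM (median 19.6) and with both agents from 34.2 to 47.9 (median 40.4). The groups with and without LPS did not overlap. Its log2 fold change was 0.90 ± 0.18 (SE) for LPS against PBS (edgeR adjusted p = 0.00101) and 1.10 ± 0.10 for both agents against ALY688 (adjusted p = 1.62e-08). Psma5, another alpha subunit, changed by 0.93 and by 1.25 on the log2 scale, the largest value among the 34 in the comparison within ALY688. Psma2 ranged from 18.2 to 30.4 CPM with PBS (median 24.5), and LPS mouse 8, the lowest with LPS, was at 30.5. With both agents Psma2 ranged from 32.3 to 52.1 CPM, above all ALY688 mice (18.3 to 25.4), and its log2 fold change was 0.90 ± 0.10 (adjusted p = 6.45e-07). Psma6 ranged from 15.9 to 24.3 CPM with ALY688 and from 26.5 to 51.1 with both (log2 fold change 1.01 ± 0.12, adjusted p = 7.52e-07).

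Of the 7 beta subunits, 5 rose in LPS against PBS and all 7 in the comparison within ALY688. Psmb2 stood at 10.3 to 15.4 CPM with PBS (median 11.8) and at 29.1, 25.0, 16.8 and 21.9 CPM in the LPS mice. Its log2 fold change was 0.91 ± 0.16 against PBS (edgeR adjusted p = 0.000301) and 1.00 ± 0.10 within ALY688 (adjusted p = 5.06e-08). Of the catalytic subunits, Psmb6 and Psmb7 passed against PBS and Psmb5 did not. Psmb6, the caspase-like site, was at 10.5 to 17.2 CPM with PBS (median 12.98) and at 31.4, 26.6, 19.5 and 18.5 CPM with LPS, with no overlap. Psmb7 was at 7.87 to 12.7 CPM with PBS (median 9.34) and at 20.7, 16.7, 11.7 and 13.7 CPM with LPS, where LPS mouse 7 lay within the PBS range. Their log2 fold changes were 0.81 ± 0.18 for Psmb6 and 0.73 ± 0.18 for Psmb7. Psmb5 ranged from 10.6 to 25.2 CPM with PBS (median 18.2), and LPS mice 7 and 8, at 19.2 and 24.6 CPM, lay inside that range, while mice 2 and 6, at 33.3 and 29.7, lay above it. Its log2 fold change of 0.54 ± 0.22 did not pass (adjusted p = 0.0569). It did pass without PBS mouse 5, PBS mouse 9 or LPS mouse 7, and without the low-complexity libraries (0.74), and ranged from 0.42 to 0.70 over all fits that left out a mouse. Within ALY688 Psmb5 rose by 0.79 ± 0.16, Psmb6 by 0.48 ± 0.13 and Psmb7 by 0.95 ± 0.15. Psmb1, a structural beta subunit, had 0.11 ± 0.14 against PBS (adjusted p = 0.555) and rose by 0.44 ± 0.08 within ALY688. Counting was not stated to use strand, so reads of overlapping genes cannot be told apart: Psmb7 overlaps Nek6 and other genes that together had 29.8% as many counts as Psmb7.

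In the base, 4 of 6 ATPases rose in LPS against PBS and 6 of 6 within ALY688. Psmc1, at 10.6 to 18.5 CPM with PBS (median 14.3), reached 36.7, 35.4, 23.0 and 24.5 CPM in the LPS mice. Psmc2, at 8.71 to 14.96 CPM with PBS (median 12.4), reached 30.2, 28.1, 19.7 and 23.6. For both ATPases the lowest LPS mouse lay above the highest PBS mouse. Psmc2 had the smallest p of the 34 in that comparison (log2 fold change 1.04 ± 0.15, edgeR adjusted p = 5.6e-05), and Psmc1 rose by 1.06 ± 0.17. Psmc3, which overlaps Slc39a13 (25.9% as many counts), and Psmc4 had 0.32 and 0.41 against PBS without passing (adjusted p = 0.175 and 0.0612) and rose by 0.41 and 0.31 within ALY688. Psmd1, the scaffold with the lowest level per kb, had the largest positive log2 fold change against PBS, 1.14 ± 0.20, and Psmd2, the other scaffold, rose by 0.67 ± 0.16.

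In the lid, 5 of 8 subunits rose in LPS against PBS and 7 of 8 within ALY688. Psmd14, the deubiquitinase, ranged from 6.34 to 12.7 CPM with PBS (median 10.7) and stood at 22.3, 25.0, 18.5 and 17.8 CPM with LPS. With ALY688 it ranged from 8.00 to 13.3 CPM (median 11.5) and with both agents from 14.0 to 25.8 (median 21.0). Neither pair of groups overlapped. Its log2 fold change was 1.02 ± 0.17 against PBS (edgeR adjusted p = 0.000272) and 0.92 ± 0.12 within ALY688 (adjusted p = 4.61e-06). Psmd11, a structural lid subunit, was the member nearest to no difference against PBS, at 0.02 ± 0.21, and had 0.22 ± 0.12 within ALY688 (adjusted p = 0.135). Psmd8 and Psmd13 had 0.41 ± 0.18 and 0.40 ± 0.16 against PBS without passing, and both rose within ALY688.

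**Figure D2:**
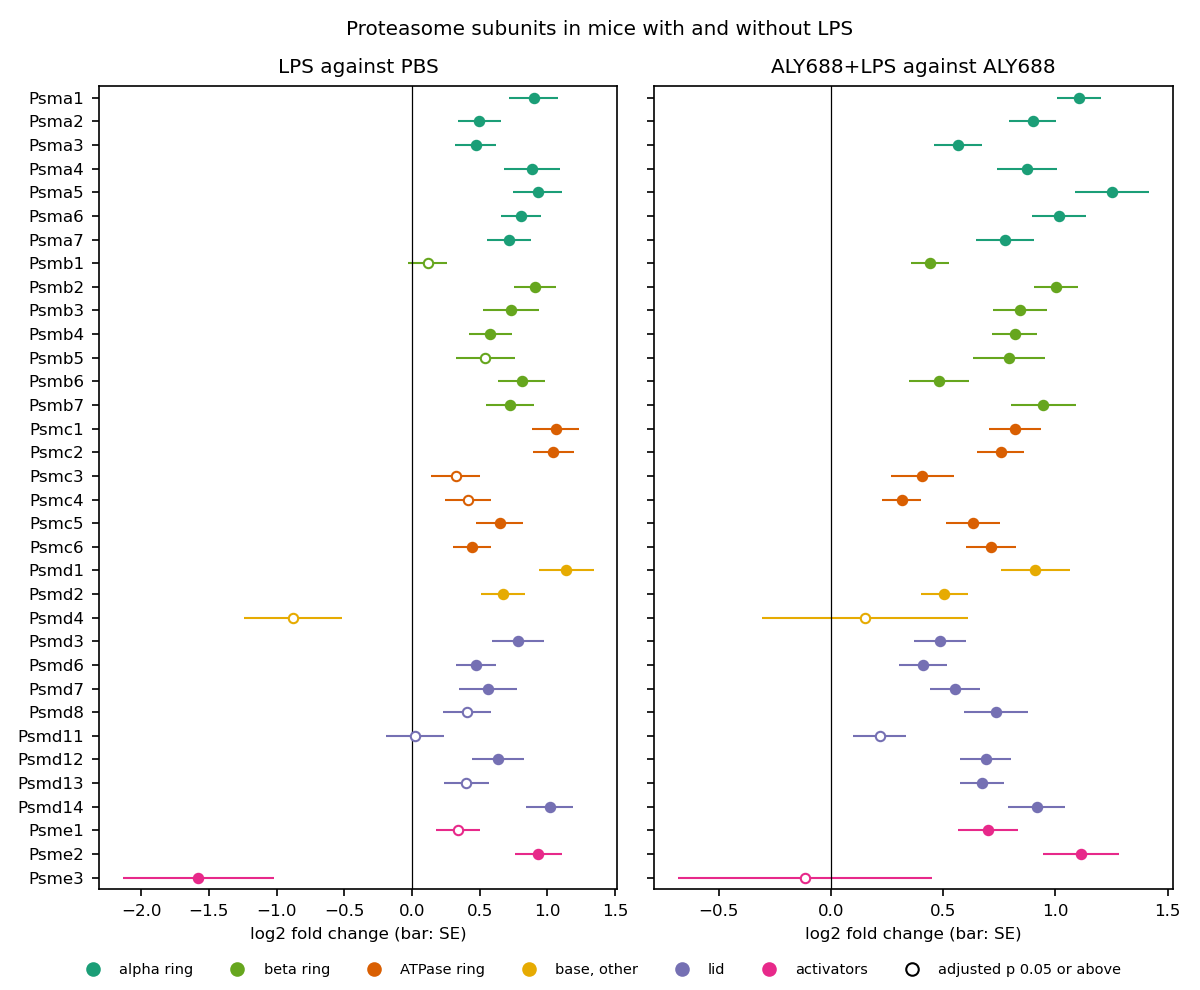
Log2 fold change of each of the 34 subunits with its SE for LPS against PBS (left, 4 against 9 mice) and for ALY688 with LPS against ALY688 (right, 7 against 10 mice); colours mark the classes and open points did not pass the edgeR test. The alpha and beta rings lie right of 0 in both panels, while Psme3 and Psmd4 have the longest bars.

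Of the activators, Psme2 rose and Psme3 fell against PBS, and Psme1 and Psme2 rose within ALY688. Psme2 ranged from 8.47 to 17.1 CPM with PBS (median 13.8) and stood at 28.0, 31.5, 23.5 and 20.4 CPM with LPS. It rose by 0.93 ± 0.17 against PBS (edgeR adjusted p = 0.000523) and by 1.11 ± 0.17 within ALY688. A near-identical gene, Psme2b, received 9231 counts over all libraries where Psme2 received 8931, so how reads were split between them makes the level of Psme2 uncertain. Psme1, the partner of Psme2, ranged from 46.6 to 69.3 CPM with PBS (median 60.1), and the LPS mice stood at 78.4, 67.5, 90.7 and 65.5 CPM, 2 of them within the PBS range. Its log2 fold change of 0.34 ± 0.16 did not pass against PBS (adjusted p = 0.115), and Psme1 rose by 0.70 ± 0.13 within ALY688.

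Psme3 ranged from 442.5 to 1950 CPM with PBS (median 838.5) and stood at 237.5, 98.1, 770.6 and 294.8 CPM in LPS mice 2, 6, 7 and 8. Of the LPS mice, 3 lay below all PBS mice and mouse 7 lay within their range. Psme3 fell by 1.58 ± 0.56 on the log2 scale (edgeR adjusted p = 0.0348). The call was lost without PBS mouse 6 (-1.46, adjusted p = 0.055), without LPS mouse 2 (-1.42, adjusted p = 0.108), mouse 6 (-1.26, adjusted p = 0.101) or mouse 8 (-1.49, adjusted p = 0.099), and without the low-complexity libraries (-1.11, adjusted p = 0.076). Without TMM scaling Psme3 had -0.58 (adjusted p = 0.0763), and with the globin share as a covariate the sign turned, to 0.79 (adjusted p = 0.294). With both agents Psme3 ranged from 241.0 CPM to 3122 (median 473.4) and with ALY688 from 464.7 to 3969 (median 657.6), a log2 fold change of -0.12 ± 0.57 that did not pass (adjusted p = 0.882). Without the low-complexity libraries Psme3 fell by 0.70 ± 0.22 in that comparison (adjusted p = 0.0106). Psmd4 ranged from 60.8 to 201.3 CPM with PBS (median 103.9) and stood at 57.7, 41.4, 97.9 and 62.7 CPM with LPS, overlapping in 2 mice. Its log2 fold change was -0.88 ± 0.36 against PBS (adjusted p = 0.0651) and 0.15 ± 0.46 within ALY688 (adjusted p = 0.805), and neither passed. The sign of Psmd4 against PBS turned without TMM scaling (0.32) and with the globin covariate (0.81), and DESeq2 called it lower (-0.91, adjusted p = 0.039). Psmd4 also passed as lower without PBS mouse 3 (-0.97, adjusted p = 0.0358), PBS mouse 4 (-0.95, adjusted p = 0.0492) or LPS mouse 7 (-1.13, adjusted p = 0.0382).

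**Figure D3:**
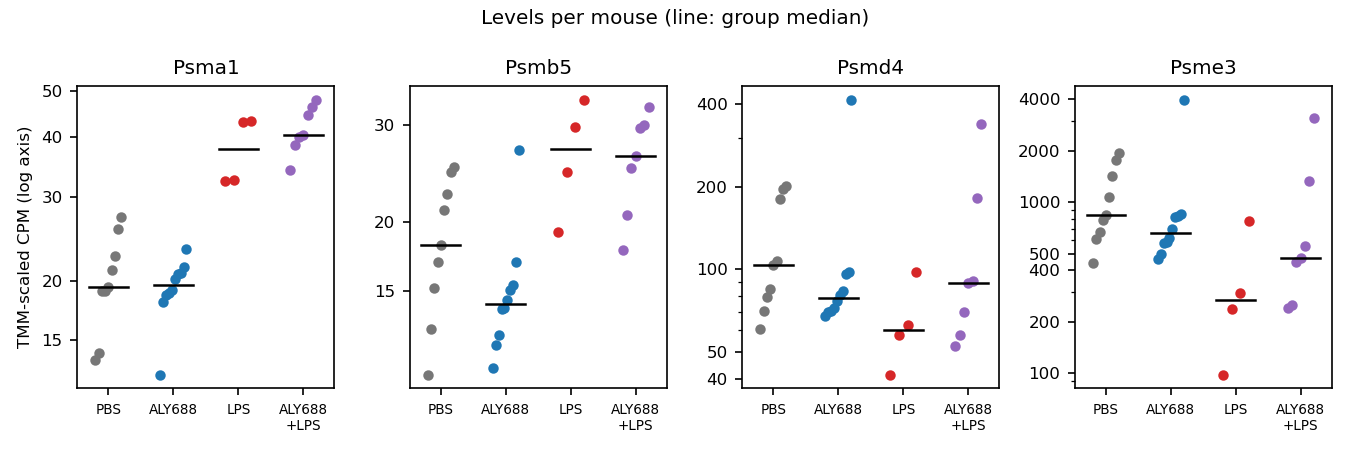
Level of Psma1, Psmb5, Psmd4 and Psme3 in each mouse, in TMM-scaled CPM on log axes; points are mice and lines are group medians. Psma1 separates mice with and without LPS, Psmb5 does so in part, and ALY688 mouse 7 stands at the top of its group for Psmb5, Psmd4 and Psme3 and at the bottom for Psma1.

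Transcript levels of blood cell markers differed across LPS in the same comparisons, which does not tell cell numbers from RNA per cell. All 8 neutrophil markers rose, with median log2 fold changes of 3.13 (LPS against PBS) and 3.80 (within ALY688). Their summed level was 576.5 to 2184 CPM in PBS mice and 525.2 to 1428 in ALY688 mice. It reached 4058 to 13910 CPM after LPS alone and 5515 to 13070 after both agents. All 6 B cell and all 6 T cell markers fell in both comparisons. The B cell markers summed to 755.0 CPM or more in each PBS mouse and to 371.6 or less in each LPS mouse, and the T cell markers to 58.6 or more and 34.9 or less. Of the 5 NK markers, 4 rose against PBS (median log2 fold change 1.67), and their summed level was 53.0 to 217.4 CPM with PBS and 321.5 to 527.2 with LPS. Within ALY688 2 NK markers rose and 1 was lower without passing (median 0.68). Their summed levels overlapped there, at 72.4 to 189.9 CPM with ALY688 and 122.8 to 475.9 with both agents. Of the 10 erythroid markers, 1 fell against PBS and 9 were lower, with a median log2 fold change of -1.53, and their summed level was 32650 to 182600 CPM with PBS and 4642 to 61740 with LPS. Within ALY688 1 erythroid marker rose, with a median of 0.33 over the 10, and the summed level was 34330 to 246700 CPM with ALY688 and 16100 to 225200 with both agents. Of the 6 platelet markers, 2 fell against PBS and all were lower (median -1.43), while within ALY688 none passed (edgeR; 0 with an unadjusted p under 0.05) and the median was -0.05. Of the 6 monocyte markers, 2 rose and 1 fell in each comparison. The part of these shifts in the subunit levels was not tested.

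Some settings changed the count of subunits against PBS. With the globin share as a covariate, 1 subunit (Psma5, log2 fold change 1.48) passed and 7 had an unadjusted p under 0.05, and the median was 0.56. No LPS mouse had a globin share inside the PBS range, so that fit compares groups whose shares do not overlap. Without LPS mouse 2, 16 subunits passed, and without the low-complexity libraries 27 did, all of them upward. Without TMM scaling 32 rose and none fell, but then 5600 of all genes rose, 296 fell, and the median of all genes was 1.04. Within ALY688 the count was 32 with the globin covariate, where all were upward, and 15 without TMM scaling.

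Genes that serve the proteasome were read from lists of 41 genes, of which 39 could be tested. Of these, 10 rose and none fell in LPS against PBS, and 19 rose and 2 fell within ALY688. Over all genes 20.9% rose and 17.9% fell against PBS, and 26.4% rose and 26.6% fell within ALY688, so the share of these genes that rose against PBS was near that of all genes. Among the regulators, Nfe2l1, the transcription factor that drives proteasome genes when the proteasome is impaired, ranged from 23.0 to 31.3 CPM with PBS and stood at 47.7, 47.1, 49.98 and 58.4 CPM in the LPS mice, all above the PBS mice (log2 fold change 0.91 ± 0.13, edgeR adjusted p = 6.2e-05). It rose by 0.71 ± 0.12 within ALY688. Nfe2l2, the factor of the oxidative stress response, rose by 1.34 ± 0.23 and 1.70 ± 0.11, and Ddi2, the protease that activates Nfe2l1, by 0.87 ± 0.18 and 0.67 ± 0.10. Sem1, a small subunit of the lid, rose by 1.16 ± 0.28 and 1.58 ± 0.21. Of the 8 assembly factors, none passed against PBS by edgeR (0 with an unadjusted p under 0.05), and within ALY688 2 rose, Pomp (0.92 ± 0.14) and Psmd10 (0.71 ± 0.11), while Psmg2 fell by 0.56 ± 0.18. Pomp, the chaperone that closes the core particle, had 0.44 ± 0.23 against PBS (adjusted p = 0.147). Of the 6 genes that encode or activate ubiquitin, likewise 0 passed against PBS by edgeR (0 with an unadjusted p under 0.05), and Uba1, which activates ubiquitin, rose by 0.50 ± 0.12 within ALY688. Among the shuttles and segregase subunits Zfand5, a proteasome activator, rose by 0.68 ± 0.24 and 1.16 ± 0.11, and Ubqln4 fell by 0.44 ± 0.11 within ALY688.

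The inducible catalytic subunits were compared with the constitutive ones that they replace, as log2 ratios of counts within each library, which do not depend on the scaling. None of the 3 inducible subunits passed by itself against PBS: Psmb8 had 0.50 ± 0.22 (edgeR adjusted p = 0.0761), Psmb9 0.38 ± 0.20 (adjusted p = 0.147) and Psmb10 0.47 ± 0.19 (adjusted p = 0.0563). Among other settings Psmb10 passed by DESeq2 (0.45) and with no filter (0.60), and did not by limma-voom (0.43). It also passed without PBS mouse 3 (0.53), PBS mouse 8 (0.52), LPS mouse 7 (0.57) or LPS mouse 8 (0.58). Within ALY688 Psmb10 rose by 0.40 ± 0.12, and Psmb8 (0.35 ± 0.15) and Psmb9 (0.29 ± 0.14) did not pass. With 1 mouse left out at a time, Psmb8 kept that result in 14 of 17 fits (0.22 to 0.48). Psmb9 kept it in 15 of 17 (0.20 to 0.40), and Psmb8 against PBS in 11 of 13 (0.37 to 0.66). The counts of Psmb10 were a median of 3.30 times those of Psmb7 with ALY688 (range 2.75 to 4.70) and 2.33 times with both agents (2.03 to 2.98). The mean log2 ratio was 1.77 ± 0.24 (SD, n = 10) and 1.25 ± 0.17 (n = 7), a difference of -0.52 (exact permutation test, two-sided, p = 0.00036, adjusted p = 0.00432 over 12 tests), and only 1 of the 12 passed. The Psmb8 to Psmb5 ratio fell short of the threshold in the same comparison (1.36 ± 0.37 against 0.86 ± 0.44, exact permutation adjusted p = 0.12), as did Psmb9 to Psmb6 in LPS against PBS (0.83 ± 0.26 with LPS, n = 4, and 1.197 ± 0.289 with PBS, n = 9, exact permutation adjusted p = 0.152). Without the low-complexity libraries both passed, at -0.44 and -0.52. In PBS mice the Psmb8 to Psmb5 count ratio ran from 0.780 to 2.76, and in LPS mice from 1.76 to 1.86. By counts, the median ratio with PBS was 2.41 for Psmb8 to Psmb5, 2.29 for Psmb9 to Psmb6 and 3.30 for Psmb10 to Psmb7. Per kilobase of exon it was 0.641, 1.17 and 6.62. The latter values depend on the merged exon lengths, such as 899 bases for Psmb5 and 3421 for Psmb7, so the relative abundance within a pair is uncertain.

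**Figure D4:**
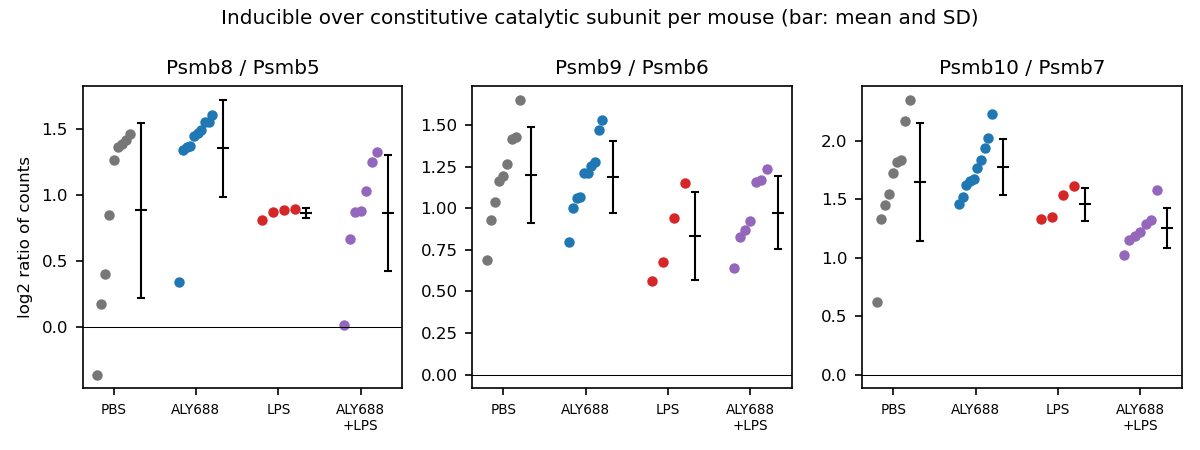
Log2 ratio of the counts of each inducible catalytic subunit to the constitutive one, per mouse, with the group mean and SD as bars; 1 panel per pair. The Psmb10 to Psmb7 ratio is lower with ALY688 and LPS than with ALY688 (1.25 against 1.77), and the Psmb8 to Psmb5 ratio has its widest spread with PBS.

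ALY688 did not go with a detectable change of any subunit. In ALY688 against PBS, which shares its PBS mice with the comparison of LPS, 0 of the 34 passed (edgeR, 0.0% of 11708 genes passed), and 4 subunits and 1250 genes had an unadjusted p under 0.05. DESeq2 and limma-voom also called 0 subunits and 0 genes. The smallest p was that of Psmc2, at 8.71 to 14.96 CPM with PBS (median 12.4) and 11.9 to 16.6 with ALY688 (median 15.9), groups that overlapped (log2 fold change 0.30 ± 0.09, adjusted p = 0.442). Psmd13, a lid subunit, followed with -0.27 ± 0.12 (19.6 to 33.8 CPM with PBS and 17.8 to 27.9 with ALY688), and Psmb1 with -0.18 ± 0.08 (31.8 to 43.1 and 27.3 to 35.1 CPM). The 34 values lay between -0.33 and 0.30. Of them 23 were below 0, as were 5429 of all 11708 genes, and without TMM scaling all 34 were above 0, where the median of all genes was 0.50. In the same comparison all 6 platelet markers (median -1.05) and all 7 tested globin genes (median -0.72) were lower without passing, and the part of these in the subunit values was not tested. Psmd13 overlaps Sirt3 and another gene, which together had 32.9% as many counts as Psmd13.

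In mice that all received LPS, ALY688 again went with 0 passing subunits (edgeR, 0.0% of 12741 genes). With 4 LPS mice a change could be missed. On simulated data this comparison recovered 48% of 2-fold changes and the interaction 39%, where ALY688 against PBS recovered 93%. The changes were planted in a small set of well-expressed genes. No subunit and 463 genes had an unadjusted p under 0.05, DESeq2 and limma-voom called none, and DESeq2 gave 1 subunit an unadjusted p under 0.05. The largest values were those of the pair with the widest spread, Psme3 at 1.40 ± 0.81 and Psmd4 at 0.96 ± 0.53 (adjusted p = 0.913 for both). The other 32 lay between -0.24 and 0.27, the highest being Psma2 at 0.27 ± 0.16. The interaction, which asks whether the effect of ALY688 differed with LPS, passed for 0 subunits (edgeR, 0.0% of 13476 genes) with 2 subunits and 1217 genes at an unadjusted p under 0.05. DESeq2 called 4 genes, none of them a subunit, and limma-voom called none. The interaction was 0.40 ± 0.18 for Psma2 and 0.32 ± 0.15 for Psmb1 (adjusted p = 0.506 for both). For Nfe2l1, Psmb8, Psmb9, Psmb10 and Pomp, neither comparison of ALY688 passed, and the value farthest from 0 was -0.43 ± 0.18 for Pomp against PBS (adjusted p = 0.442).

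Each gene was also fitted with a slope on the globin share of the library within groups. Over the PBS and ALY688 mice 8 subunits had a positive slope that passed (edgeR, adjusted p below 0.05) and none a negative one, where 16.2% of 11708 genes had a positive and 11.2% a negative slope. Psme3 and Psmd4 stood apart, with log2 slopes per 10 percentage points of 1.11 ± 0.21 (adjusted p = 0.00133) and 0.97 ± 0.18 (adjusted p = 0.00132). The other 6, Psmb4, Psmb5, Psmc3, Psmd2, Psmd8 and Psmd13, had slopes of 0.19 to 0.34. Without the low-complexity libraries no subunit and no gene passed in these mice (edgeR, with 1 subunit and 1486 genes at an unadjusted p under 0.05), and Psme3 had a slope of 0.31 ± 0.19. That step also removed the highest globin shares, those of PBS mice 5 and 6 (64.2% and 64.4%) and ALY688 mouse 7 (60.8%). A narrower range of shares and low complexity cannot be told apart there. Without ALY688 mouse 7 alone none of the subunits passed, and the slope of Psme3 was 0.69 (adjusted p = 0.0593). Without PBS mouse 3, 5 passed, and without PBS mouse 5, 4.

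Over the mice with LPS, 2 subunits had a positive slope, Psme3 at 1.19 ± 0.12 (edgeR adjusted p = 1.3e-05) and Psmd4 at 0.75 ± 0.10 (adjusted p = 0.000147), and 2 lid subunits a negative one, Psmd3 at -0.30 ± 0.07 and Psmd6 at -0.20 ± 0.07. The background was 13.3% of 12741 genes upward and 5.89% downward. Psme3 and Psmd4 passed here also without the low-complexity libraries, at 1.00 ± 0.12 and 0.47 ± 0.08, and Psmd3 and Psmd6 did not. The libraries left out, ALY688 with LPS mice 6 and 8, had the highest globin shares of these mice (53.6% and 54.3%). Psmd6 lost its call by DESeq2 and limma-voom, and kept it in 3 of the 11 fits that left out a mouse. All 10 erythroid markers had a positive slope that passed in both sets of mice, with medians of 1.23 and 1.34. Of the 6 platelet markers, 5 passed upward without LPS and 6 with it, with medians of 1.02 and 0.87. The part of either cell type in the slopes of Psme3 and Psmd4 was not tested. In LPS mouse 6, with the lowest globin share (18.5%), Psme3 was at 98.1 CPM, and in PBS mouse 6, with the highest (64.4%), at 1759 CPM. These slopes depend on the TMM scaling: on library totals alone the median slope of all genes was -0.91 without LPS and -0.67 with it, Psme3 still rose with the share in mice with LPS (0.49 ± 0.10), and Psmd4 had -0.07 without LPS and 0.06 with it. There 32 subunits without LPS, and 32 with it, had negative slopes that passed. Without LPS no subunit, Psme3 included, had a positive slope that passed on library totals.

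**Figure D5:**
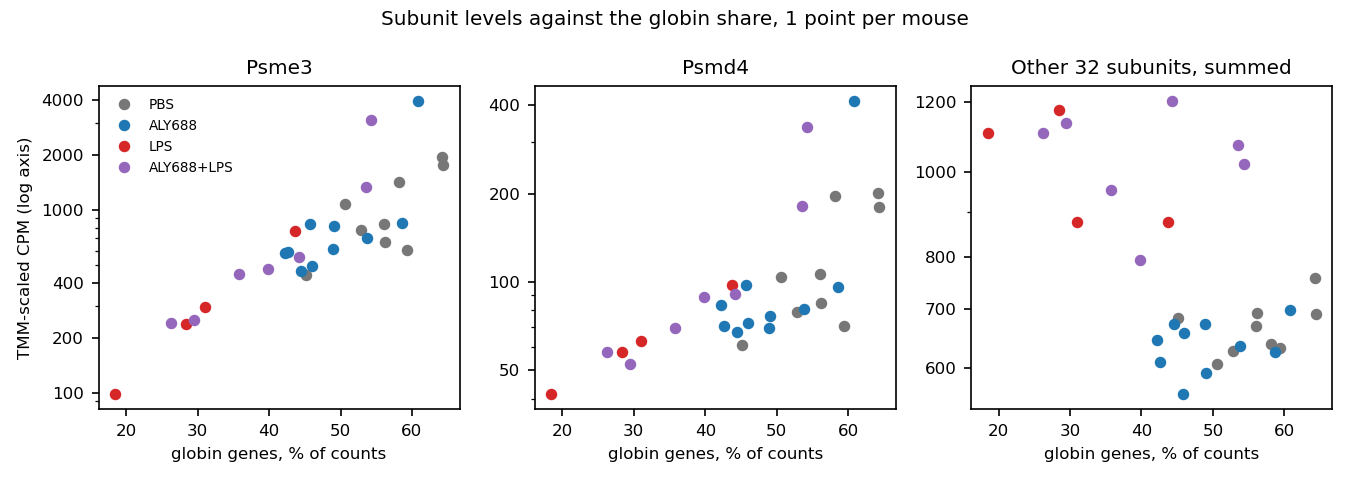
Level of Psme3, of Psmd4 and of the other 32 subunits summed, against the percent of counts in globin genes, 1 point per mouse, on log y axes in TMM-scaled CPM. Psme3 rises from 98.1 CPM at the lowest globin share to 3969 CPM at 60.8%, while the summed level of the other 32 separates mice with LPS (795.4 to 1203) from mice without it (560.0 to 757.3).

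Within groups the 34 subunits did not vary as 1 block. After removal of group means, the log2 levels of Psme3 and Psmd4 correlated with r = 0.958 over the 30 libraries, while Psme3 with each of the other 32 had a median r of -0.347 and Psmd4 one of -0.309. The 496 pairs among the other 32 had a median r of 0.317 (range -0.456 to 0.864). These are descriptions over libraries that share their depth and scaling, and the split into 2 and 32 genes was made after the values were seen. The low-complexity libraries entered all correlations of this paragraph, which were not computed without them. Among them, ALY688 mouse 7 and ALY688 with LPS mouse 8 were the highest of their groups for Psme3 (3969 and 3122 CPM) and Psmd4 (414.5 and 338.5 CPM). The genes most like the mean of the 34 within groups were Eif5a (r = 0.819), Srp9 (0.81), Cycs (0.8), Atp5a1 (0.786) and Atp5g3 (0.768). Those most like Psme3, chosen after its values were seen, were Cd24a, Tfdp2, Ube2o, Dhrs11 and Rnf10, with r from 0.99 to 0.992, and those most like Psmd4 were Urod, a heme synthesis enzyme (0.991), Suds3, Ube2m, Mpc2 and Bsg (0.987 to 0.989). Summed over the other 32 subunits, the level was 666.3 ± 46.1 CPM (SD, n = 9) with PBS, 636.7 ± 41.5 (n = 10) with ALY688, 1009 ± 154.1 (n = 4) with LPS and 1040 ± 134.3 (n = 7) with both.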

How the data were processed

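Poly-A RNA of mouse blood was sequenced. The authors deposited raw counts by Ensembl gene, and 1 table per mouse was used for the mice analysed here. HISAT2 2.0.5 and featureCounts 1.5.0-p3 are named in the submitters' processing notes, and the sources used here give neither build, annotation nor strand setting. RNA came from a column kit, with poly-T selection and random hexamer priming, per the labels' protocols. Symbols, coordinates and exon lengths came from GENCODE M21 (GRCm38), which held 54409 of 54532 IDs.

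Of 34 labelled samples, 30 had counts. The labels number the mice, and each counts as 1 replicate. No libraries of a group agreed within sampling noise (chi-square per degree of freedom at least 8.02). Genes were filtered with filterByExpr, scaled with TMM and tested with the two-sided quasi-likelihood F-test of edgeR 4.0.16 (R 4.3.3), only the compared groups entering each fit, with Benjamini-Hochberg adjustment over all genes tested and a threshold of 0.05. The SE is the log2 fold change divided by the root of F. The interaction used all 4 groups, and globin slopes were fitted with group as a term. Ratios used a prior count of 2 and exact permutation tests. DESeq2 1.42.0, limma 3.58.1, other scalings and filters, and left-out mice were alternatives. The fits were tested on simulated data, where 32% of 2-fold changes were recovered for LPS against PBS and 81% within ALY688. Changes were planted there in a small set of well-expressed genes. The real comparisons called 4785 and 6504 genes, so the adjusted threshold differs and these shares are not the recovery in the real data. At library totals as deposited, 3 counts, the floor of detection, were 0.173 to 0.314 CPM; this covers counting error only.

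The members and lists were chosen with earlier results of these data known. Genes named were all 34 members, by the up to 4 smallest p in each direction, fixed catalytic and activator subunits, and up to 3 genes of each related list; some of the latter are not reported here. No pairing by mouse number was detected: same-numbered mice correlated with r from -0.501 to 0.298 in their deviations from group means. This does not exclude that a number stands for the same animal.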

Additional observations from a re-analysis of the deposited data

Results flagged for a closer look

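In each group of 4 to 10 mice, the highest and the lowest level of each subunit were compared with the nearest other mouse by Dixon's criterion at the 95% level. Of 136 such groups, 12 held a mouse that stood apart, and chance gives about 1 in 20 for a single test. The subunits share libraries and scaling, so the 136 are not independent and their count cannot be set against chance. ALY688 mouse 7, a low-complexity library with 60.8% globin counts, accounted for 10 of the 12. It was high for 8 subunits. Psme3 stood at 3969 CPM in it (next mouse 847), Psmd4 at 414.5 (97.4), Psmd2 at 61.8 (47.5), Psmd8 at 57.7 (34.6) and Psmc3 at 51.1 (30.7). Psmb5 stood at 27.1 CPM (next mouse 16.9), Psmd13 at 27.9 (22.6) and Psme1 at 72.6 (59.3). The same mouse was low for Psma1, at 12.7 CPM (next mouse 18.0), and for Psmc6, an ATPase, at 7.73 (12.5). In ALY688 with LPS mouse 8, also of low complexity, Psme3 stood at 3122 CPM (next mouse 1333). In PBS mouse 9 Psmb3, a structural beta subunit, was low at 9.88 CPM (next mouse 18.2). The values of ALY688 mouse 7 enter the globin slopes in mice without LPS, where no subunit passed once it was left out.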

How the results depend on the processing

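Without TMM scaling 15 subunits passed within ALY688 (3049 genes against 6504), 32 for the globin slope without LPS and 33 with LPS (9748 and 10815 genes against 3206 and 2446). Signs turned there for ALY688 against PBS in Psmd13 (0.28), Psmb1 (0.38), Psme3 (0.26) and Psmd4 (0.32), for ALY688 within LPS in Psma2 (-0.34), for LPS against PBS in Psmd4 (0.32), for the interaction in Psma2 (-0.74), Psmb1 (-0.80), Psme1 (-0.67) and Psmd4 (-0.20), and for the globin slope without LPS in Psmd4 (-0.0724), Psmd13 (-0.63) and Psmd2 (-0.66). The globin covariate left 1 subunit in LPS against PBS, and signs turned in Psme3 (0.79), Psmd4 (0.81), Psmb8 (-0.37) and Psmb10 (-0.0751); for ALY688 against PBS in Psme3 (0.53) and Psmd4 (0.49); for ALY688 within LPS in Psmd4 (-0.0255); for LPS within ALY688 in Psme3 (0.64); and for the interaction in Psme3 (-0.46) and Psmd4 (-0.50). Without the low-complexity libraries 0 subunits passed for the globin slope without LPS (0 genes; 1486 at an unadjusted p under 0.05, edgeR) and 2 with LPS (1388 genes), Psmd4 within ALY688 had -0.0938, Psmb8 to Psmb5 had 0.16 within LPS and -0.44 within ALY688, Psmb9 to Psmb6 had -0.52 for LPS against PBS, and Psmb10 to Psmb7 had -0.14 for ALY688 against PBS. For the globin slope without LPS, 4 subunits passed by limma-voom and 2 with no filter. DESeq2 called 4 genes in the interaction. Leaving out the low-complexity libraries also narrowed the range of globin shares for both slopes. The cause of these shifts was not tested.

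Leaving out 1 mouse at a time gave 16 to 28 passing subunits for LPS against PBS, 30 to 31 within ALY688, 0 to 0 in the ALY688 comparisons, 0 to 8 for the globin slope without LPS and 3 to 6 with LPS. Psme3 ranged from -0.72 to 0.0739 and Psmd4 from -0.63 to 0.0422 for ALY688 against PBS, and from -0.89 to 0.40 and -0.35 to 0.61 for LPS within ALY688. The ratio of Psmb8 to Psmb5 ranged from 0.32 to 0.58 for ALY688 against PBS, -0.17 to 0.0542 for LPS against PBS, -0.61 to -0.35 within ALY688 and -0.0816 to 0.14 within LPS. That of Psmb9 to Psmb6 ranged from -0.0736 to 0.0468, and that of Psmb10 to Psmb7 from -0.00586 to 0.21, for ALY688 against PBS, and the latter from -0.57 to -0.47 within ALY688. Without ALY688 mouse 7 Psmb8 to Psmb5 passed for ALY688 against PBS (0.58) and within ALY688 (-0.61). Interaction fits left out only the 4 LPS mice in turn. No pairing by mouse number was detected: 2 of 23 mice correlated best with their own number. With the replicate number as a block, 14 subunits passed for LPS against PBS and 28 within ALY688, and the Psmb10 to Psmb7 difference within ALY688 was -0.57 (exact permutation adjusted p = 0.0938; smallest possible p = 0.0156). Only mouse numbers found in both groups entered these fits, 4 for LPS against PBS and 7 within ALY688, so fewer libraries were used as well. With 3 counts as the floor, no subunit was near it: the lowest count was 24.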

Other observations

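Some other genes of the ubiquitin system had slopes on the globin share near those of Psme3 and Psmd4, but the set did not. The median slope of the 39 tested genes that serve the proteasome was 0.05 without LPS and -0.03 with it. In mice without LPS 13 of the 39 tested genes that serve the proteasome had a positive slope that passed and none a negative one (edgeR; 16.2% and 11.2% of all genes). Among them were Psmf1, an inhibitor of the proteasome, at 1.25 ± 0.18 per 10 percentage points, and Ubb, which encodes ubiquitin, at 1.07 ± 0.21. Without the low-complexity libraries, which included those with the highest globin shares, no gene passed in these mice (edgeR, with 1486 genes at an unadjusted p under 0.05). In mice with LPS 4 had a positive slope and 1 a negative one (13.3% and 5.89% of all genes), with 1.10 ± 0.09 for Psmf1 and 1.18 ± 0.13 for Ubb. Neither share exceeded that of all genes. Ubqln4 had the negative slope, -0.26 ± 0.08. The inducible subunits had slopes of -0.11 to -0.18 without LPS and -0.12 to -0.27 with LPS, and none of the 3 passed (edgeR; 0 with an unadjusted p under 0.05 without LPS and 1, Psmb8, with it).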
